A study of Mus musculus with 54 samples.

Results

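Extraembryonic endoderm (XEN) cells and embryonic stem cells (ESCs) come from neighbouring lineages of the mouse blastocyst, and their replication timing was compared window by window along the autosomes. The comparison used 22 of the 54 libraries of the series, which form 11 of its 27 timing profiles: 2 profiles of 1 XEN line, and 9 profiles of 5 ESC lines grown in 2i medium. The ESC lines are F121, with 1 profile, and F121-6, F121-9, then F123 and Cas129, with 2 profiles each; values of ESC lines are listed in this order. Each group's profiles were taken by their labels, and the profiles of an ESC line were averaged, so that 2 XEN profiles stood against 5 ESC lines. The lines whose names begin with F121 may share an origin, which was not tested. The tests treat the 5 ESC lines as independent, and if some are related, the spread between ESC lines is less well sampled than their number implies. Of 46268 windows of 50 kb on mm10, the 43941 autosomal windows (94.97%) were used.

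All cells are F1 hybrids, so that each profile holds a value for each parental genome, and the mean of both was used. The ESC lines carry a 129 and a Cas (Mus castaneus) genome. Cas129 is labelled as the reciprocal of the cross of the other 4 lines. F123 is labelled male and the other 4 ESC lines and the XEN cells female. The XEN line carries a C57B6 and a Cas genome. The ESCs were kept without feeders in N2B27 medium with 1 µM of a MEK inhibitor, 4.25 µM of the GSK3 inhibitor 1-Azakenpaullone and 1000 U/ml of LIF. The XEN cells were kept in RPMI with 15% serum and have no profile in 2i. Cell type, line, medium and the genome opposite Cas therefore differ together and cannot be told apart, except where the Cas genome alone or another ESC line bears on the genome. V6.5 ESCs in the same 2i medium (1 profile, male, C57B6 and 129 genomes) are given as a reference for the C57B6 genome. MEFs (mouse embryonic fibroblasts in 10% serum, Cas and 129, 4 embryos) and NPCs (neural precursors at day 11 of differentiation from F121-9 and Cas129) are given beside them. Nothing in the labels says that repeat profiles came from separate cultures, and the XEN profiles are of 1 line, so the p-values carry no spread between XEN lines.

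In mammalian cells large chromosome domains replicate together, early or late in S phase. Early replication goes with open chromatin and active genes, late replication with gene-poor and lamina-associated chromatin, and part of the program is rearranged as cells take on a fate. XEN cells correspond to the primitive endoderm, the blastocyst layer that gives rise to the yolk sac, and depend on GATA and SOX17 factors. ESCs correspond to the epiblast and depend on OCT4, SOX2 and NANOG. Repli-Seq marks new DNA with BrdU, and cells in early and in late S phase are separated by sorting and sequenced apart. A value is the log ratio of early to late signal, read here as log2 because the base is not stated, so that a positive value means early replication. The values come from bulk cultures, in which an intermediate value in every cell and a mixture of early and late cells cannot be told apart. No expression was measured, so the cell types were not checked against marker RNA, and genes are described by the timing of a window. Of 19287 measured genes, 14558 were read from the window that holds their start, 3698 without a stated strand from the one that holds their midpoint, and 1031 (5.35%) from the nearest window within 50 kb because their own had no value. Foxa2, Otx2 and Fgf4 are among the last.

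The XEN profiles lay far from the ESC lines and close to each other. Across windows, which are not independent and share libraries, Pearson's r was 0.983 between the XEN profiles, 0.939 to 0.985 between ESC lines and 0.805 to 0.847 between XEN profiles and ESC lines. V6.5 ESCs correlated at 0.917 to 0.954 with the other ESC lines and at 0.810 to 0.821 with the XEN profiles. A gap of 1 or more separated a XEN profile from an ESC line in 36.9% to 43.2% of windows, V6.5 from an ESC line in 14.7% to 26.1%, and a pair of ESC lines in 2.53% to 21.5%. The XEN profiles differed that much from each other in 3.90% of windows. XEN profiles correlated at 0.803 to 0.828 with MEF embryos and at 0.824 to 0.852 with NPC lines. The ESC line F121-6 stood apart in the earliest windows: in the earliest 5% of windows of the other ESC lines its median was 1.88 against their 3.09, while the other 4 lines had medians of 2.90 to 3.04 in theirs. No call of a list gene named here, or of the window of largest difference in a named region, ended when F121-6 was left out.

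With limma on the 7 units, 7724 windows replicated earlier in XEN cells (17.6% of the 43941 tested) and 7909 later (18.0%). A window was called where its difference reached 1 in size and its p, after Benjamini-Hochberg adjustment over all windows, was under 0.05. Without F121-6 the counts were 7917 and 8192. Both XEN profiles lay beyond all 5 ESC lines in 7627 of the windows called earlier (98.7%) and in 7778 of those called later (98.3%). Over all windows they did so in 11900 (27.1%) on the early side and in 12352 (28.1%) on the late side. The calls were made from the same values, so a high share among called windows follows from the selection. The near-even split depends on the quantile normalization, which gives each column the same distribution. XEN and ESC columns had been deposited on different scales, with median autosomal column means of -0.15 and -0.60. On the values as deposited the counts were 12501 and 4737, and the median difference over all windows was 0.39. With centring and scaling in place of quantiles they were 6796 and 9691, with a median difference of -0.25. The Cas genome, which all 7 units share, gave 8062 and 8258 windows on its own. Of the windows called earlier and later from both alleles, 86.6% and 85.8% were also called from the Cas columns alone, and 4 and 1 windows were called the opposite way.

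The size of the difference depended on where a window stood in ESC timing. Windows were divided into deciles of ESC timing, from 1 (latest) to 10 (earliest). In decile 1, 22.8% of windows were called earlier in XEN cells, and in decile 10, 12.6% were called later. These end classes can change in 1 direction only, which the range of the values fixes. In decile 10 a single ESC line lay 1 or more from the mean of the other 4 in up to 44.6% of windows, against 13.5% to 21.1% for the XEN mean. In deciles 4 to 7, with ESC medians between -1.93 and 0.85, 24.1% to 26.6% of windows were called earlier and 25.3% to 26.9% later. The middle deciles also had the widest spread of XEN values. In decile 6 the median was -0.14 in XEN cells and -0.08 in ESCs, and the XEN windows spread from -2.15 to 2.20 between the 10th and the 90th percentile. Each ESC line was also set against the mean of the other 4. A gap of 1 or more then arose in 0.658% of windows for F121-9, 1.24% for F121, 2.11% for F123, 6.62% for Cas129 and 9.36% for F121-6, against 35.6% to 36.8% for the XEN mean set against the same 4 lines.

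**Figure D1:**
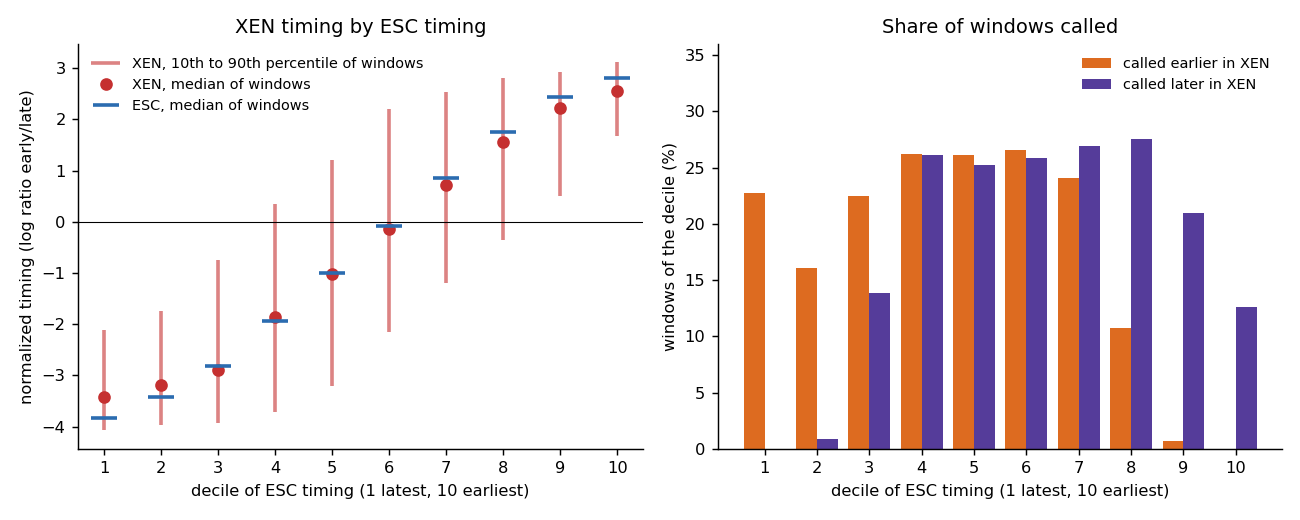
Left, normalized timing (log ratio of early to late signal) in XEN cells by decile of ESC timing, with the median of windows (point) and their 10th to 90th percentile (line); blue bars are ESC medians. Right, percent of the windows of each decile called earlier or later in XEN cells; both shares are between 24.1% and 26.9% in deciles 4 to 7, and at the ends 22.8% were earlier in decile 1 and 12.6% later in decile 10.

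Few windows went through the whole range. Of the 12234 windows that were early (at least 1) in all 5 ESC lines, 9918 (81.1%) were as early in both XEN profiles and 302 (2.47%) were late (at most -1) in both. Of the 17297 windows late in all 5 lines, 15059 (87.1%) were late in both XEN profiles and 305 (1.76%) were early in both. The windows that went from early to late cover 15.1 Mb on 18 chromosomes and 117 protein-coding genes were read from them, 15 of these from outside as the nearest window. Sox2, Zfp42, Dppa2, Dppa4 and Rif1 are among the 117, as is Otx2, which lies just outside its window. The windows that went from late to early cover 15.25 Mb on all 19 autosomes and 71 genes were read from them (3 from outside), among them Dab2, Runx1, Thbd, Nrg1 and Ifnb1. In these 2 classes V6.5 ESCs had medians of 1.56 and -1.84, on the side of the other ESC lines. MEFs had medians of -0.61 and 0.18, and NPCs of 0.62 and -0.89, nearer to the middle. The threshold of 1 for early and late was chosen with the values in view, and the classes are a description.

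Called windows joined into 583 regions that replicated earlier in XEN cells (median 500 kb, longest 3700 kb, 372 Mb in all) and 600 that replicated later (median 450 kb, longest 4150 kb, 371.55 Mb in all). Regions of at least 1 Mb numbered 105 and 100. No protein-coding gene lay in 64 of the earlier and 70 of the later regions. ESC timing in the 250 kb on either side could be read for 517 and 515 regions. Of the earlier regions, 209 (40.4%) had ESC-early chromatin on 1 side, 137 (26.5%) on both sides and 171 (33.1%) on neither. Of the later regions, 154 (29.9%), 111 (21.6%) and 250 (48.5%) did. The regions with an early flank on 1 side were the longest in both directions, with a median of 600 kb.

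Gene-rich windows changed less often, and more often to later than to earlier. Windows in which no protein-coding gene was placed were called earlier in 19.2% and later in 18.2%, and windows with 3 or more genes in 7.37% and 12.7%. Their ESC medians were -1.50 and 2.61. Over the 19287 measured genes, 12% were called earlier and 16.3% later, and the median difference was -0.16. The median over all windows was -0.01. In the 10 Mb of assembled sequence next to the centromere 13.8% of windows were called earlier and 23.8% later, and in the last 10 Mb of the chromosomes 23.5% and 14.5%. Chromosome 3 had 22.6% earlier and 14.1% later windows, and chromosome 4 the reverse pattern with 10.1% and 22.1%. On chromosome 10 24.1% were earlier. Neighbouring windows move together, so these shares are given with no test.

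Promoter CpG content was set beside the calls. Among genes with a RefSeq promoter sequence on GRCm38.p6 (250 bases before to 50 after the start), the median number of CG dinucleotides was 8 for the 1819 genes called earlier, 13 for the 2478 called later and 16 for the 11091 not called. ESC timing moves with this count, and within classes of ESC timing the order mostly turned. From 0 to 2 the medians were 12, 14 and 14. In the other 3 classes genes called earlier had the highest median: 8, 3 and 5 from -2 to 0, 3, 2 and 2 below -2, and 22.5, 18 and 18 above 2, where only 38 genes were called earlier. The upstream 250 bases of a gene that moved each way are given here to show the range of CG content, with CG in capitals. Sox2 (chr3:34649745-34649994, plus strand) went from early to late and has 27 CG, more than 89.1% of promoters. Dab2 (chr15:6299539-6299788, plus strand) went from late to early and has 2, more than 14.6% of promoters. Both were chosen after their values were seen.
Sox2: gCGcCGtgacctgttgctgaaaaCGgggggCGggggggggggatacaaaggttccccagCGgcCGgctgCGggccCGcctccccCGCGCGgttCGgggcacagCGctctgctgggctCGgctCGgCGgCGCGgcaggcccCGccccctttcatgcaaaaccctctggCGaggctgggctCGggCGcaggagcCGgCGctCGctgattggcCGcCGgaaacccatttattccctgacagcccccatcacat
Dab2: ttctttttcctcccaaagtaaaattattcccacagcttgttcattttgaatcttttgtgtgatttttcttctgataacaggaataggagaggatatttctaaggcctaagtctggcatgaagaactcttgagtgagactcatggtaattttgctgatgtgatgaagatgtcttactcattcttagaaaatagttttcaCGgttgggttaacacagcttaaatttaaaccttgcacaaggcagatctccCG

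The named regions are the 12 with the largest mean difference in each direction among runs of called windows of at least 200 kb. In their window of largest difference (the peak window), both XEN profiles had to lie beyond all 5 ESC lines. Protein-coding genes that they overlap, or that lie within 500 kb of the peak window, gave them names. The peak window of each of the 24 kept its call under all alternatives that were run. Peak windows were chosen for their large differences, so this was likely beforehand, and whole regions were not called again. The region of Nrg1 (chr8:31400001-32950000), which encodes a ligand of the ERBB receptors, had the largest rise. Its mean timing was 0.84 and 0.89 in the XEN profiles and -3.17, -3.39, -3.25, -3.43 and -3.24 in the ESC lines. V6.5 had -2.22, MEFs -0.47 and NPCs -1.85. The XEN profiles lay above every other group, and the peak window was earlier by 6.61 ± 0.26 (SE; limma, Benjamini-Hochberg adjusted p = 3.58e-08). The other earlier regions had mean differences from 3.20 to 3.89. They overlapped Ankrd50 and Fat4, P2ry1, Macrod2 and Flrt3, Foxq1, Foxa2 with Thbd and Cd93, L3mbtl4 and Lama1, Myo16, Hs3st1, Gata6, Actbl2, and Sema6d.

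Some of these earlier regions hold or border endoderm genes, and whether more do so than among the later regions was not tested. The region of Gata6 (chr18:10950001-11450000), a transcription factor that drives primitive endoderm fate, was at 1.94 ± 0.10 (SD, n = 2) in XEN cells and between -1.62 and -1.07 in the ESC lines. V6.5 was at -1.84, MEFs at -0.76 and NPCs at -0.19. The region that begins at the far end of Lama1 (chr17:67800001-69450000), which encodes the alpha 1 chain of basement membrane laminin, was at 1.75 and 1.84 against -1.97 to -1.50. The window of the Lama1 start itself was not called. The region of Hs3st1 and Clnk (chr5:38850001-40150000) was at 0.70 and 0.82 in XEN cells, at -2.70 to -2.44 in the ESC lines and at -3.05 and -3.46 in MEFs and NPCs. Against MEFs, 22.1% of all windows were called earlier and 20.1% later in XEN cells, and against NPCs 19.1% and 18.3%. At the Actbl2 and Fat4 regions the test against MEFs was not passed. The peak window of the Actbl2 region differed from MEFs by -0.36 (adjusted p = 0.37, limma with Benjamini-Hochberg adjustment) and that of the Fat4 region by 0.30 (adjusted p = 0.39). The comparisons with MEFs and NPCs share the XEN profiles with the comparison with ESCs.

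Among the later regions the one of Morc1, Dppa2 and Dppa4 (chr16:47750001-49150000) fell furthest on average. It was at -3.52 and -3.45 in XEN cells, at 0.30, 0.47, 0.24, 0.22 and 0.75 in the ESC lines, and at -3.12 and -3.34 in MEFs and NPCs. V6.5 was at -0.41, below the other ESC lines and far above the XEN profiles. The Sox2 region (chr3:33500001-36000000) was 2500 kb long, at -2.50 and -2.21 in XEN cells and at 0.92 to 1.53 in the ESC lines. Its peak window fell by 6.85 on the log2 scale (SE 0.24, adjusted p = 3.16e-08, limma). MEFs were at -2.73 and NPCs at 0.28. The Tenm4 region (chr7:95350001-97000000), named for a teneurin membrane protein, was at -2.85 and -3.05 in XEN cells and at 0.39 to 0.95 in the ESC lines. V6.5 was at -0.56 and NPCs at 0.08. The longest later region, 4150 kb with Sh3gl2, Cntln and Adamtsl1 on chromosome 4 (chr4:82050001-86200000), was at -2.73 and -2.79 against 0.17 to 0.98. The other later regions overlapped Zfp369, Prex2, Adgrb1 and Arc, Igsf21, Pdgfc and Glrb, Bcat1 and Sox5, Zdbf2, and Lrba and Dclk2, with mean differences from -3.84 to -3.09.

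**Figure D2:**
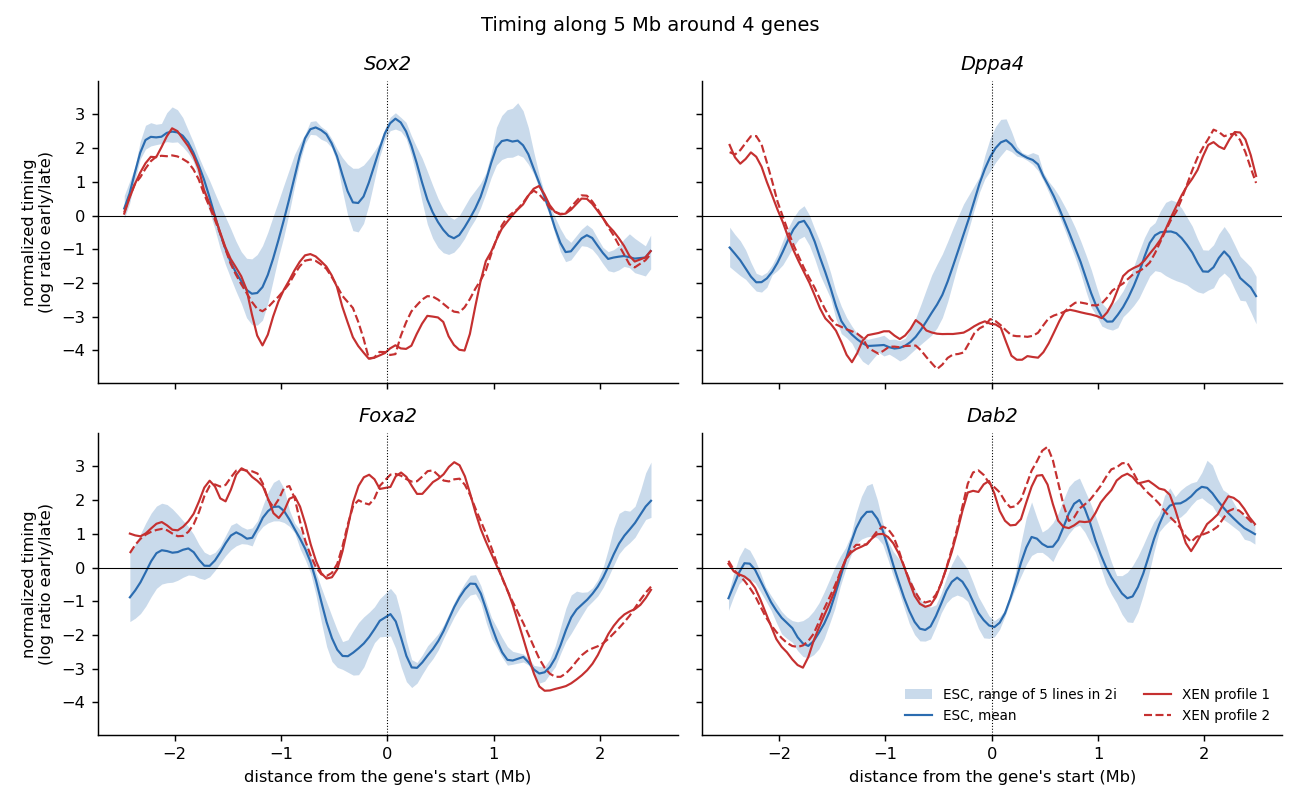
Normalized timing (log ratio of early to late signal) in 50 kb windows by distance in Mb from the start of Sox2, Dppa4, Foxa2 and Dab2, with a red line for each XEN profile and, in blue, the mean and range of the 5 ESC lines. The stretch around the start in which both XEN profiles lay beyond all ESC lines spanned 2550, 1450, 1950 and 1200 kb.

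Pluripotency genes replicated later in XEN cells or did not pass the test. Of 26 measured genes 9 fell (34.6%) and 0 rose, against 16.3% and 12% of all measured genes. The median difference was -0.54 against -0.16 over all genes. The listed genes had an ESC median of 2.50, against 2.13 over all genes, and windows that early can rise little. Of genes with a promoter sequence and ESC timing above 2, 38 were called earlier, 1079 later and 7002 not called. That 0 listed genes rose therefore follows largely from where they start. Sox2, a partner of OCT4, was at -4.08 and -4.05 in XEN cells and at 2.52, 2.23, 2.45, 2.58 and 2.37 in the ESC lines. It went from among the early to among the latest windows, with a difference of -6.50 ± 0.23 (SE; limma, adjusted p = 3.16e-08). V6.5 was at 2.25. Dppa2 and Dppa4, neighbours on chromosome 16 that encode a chromatin-binding pair, had differences of -5.18 and -4.88. Zfp42, which encodes the ESC marker REX1, was at -2.50 and -2.71 in XEN cells and at 1.69 to 2.23 in the ESC lines, and fell by 4.55. Esrrb, Nr5a2 and Prdm14, a nuclear receptor pair and a repressor of differentiation, fell, with differences of -2.50, -2.05 and -1.91, and ended between 0.25 and 0.63 in the XEN profiles. Fgf4, the ESC ligand to which primitive endoderm responds, fell by 1.31. Its call ended in 4 of 19 alternatives, with no normalization, with XEN as 1 unit, without XEN profile 1 (-1.19) and in the columns of the allele that is not Cas (-0.33, adjusted p = 0.511, limma, against -2.28 in the Cas columns). Tfcp2l1 fell by 1.19, a call that ended in 10 of the 20 alternatives, among them the fits without either XEN profile (-0.91 and -1.47) and without F121, F121-9 or F123 (-1.15, -1.08 and -1.14). It was -1.99 in the Cas columns and -0.39 in those of the other allele.

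The central factors were not alike in this respect. Pou5f1, which encodes OCT4, was at 2.83 in both XEN profiles and at 2.67, 1.34, 3.05, 2.66 and 2.63 in the ESC lines, so that the groups overlapped (difference 0.36, adjusted p = 0.48, limma with Benjamini-Hochberg adjustment). Nanog had a difference of -0.53 (adjusted p = 0.492, limma). Its XEN values were 1.67 and 1.64, and its ESC values 0.32 in F121-6 and at least 1.99 in the other lines. Without F121-6 the Nanog difference was -0.99, still under the minimum of 1. Klf4 had a difference of 0.04. Klf2 had no window.

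Endoderm transcription factors moved in both directions. Of 12 measured genes 5 rose (41.7%) and 2 fell (16.7%), against 12% and 16.3% of all measured genes. Foxa2, a pioneer factor of endoderm, was at 2.39 and 2.75 in XEN cells and at -1.61, -2.03, -0.76, -0.62 and -1.89 in the ESC lines, a rise of 3.95 ± 0.39 (SE; limma, adjusted p = 6.67e-06). Its V6.5 value was 0.08, between the XEN profiles and the other ESC lines. Foxq1 rose by 3.47 and Gata6 by 3.08, from ESC values all below 0 to XEN values of at least 2.37. Sox17, needed to maintain XEN cells, rose by 2.14 and Sox7, another SOX factor of endoderm, by 1.46. Otx2, used in visceral endoderm and in the epiblast, fell by 3.36 to -1.52 and -1.21. Foxa1 fell from a mean of -0.70 (SD 0.51, n = 5) to -1.90 (adjusted p = 0.0101, limma), a call that ended without either XEN profile (adjusted p = 0.0534 and 0.0886) and in the Cas columns alone (-0.96). Gata4, which acts beside GATA6, was early in all units, at 2.01 and 1.74 in XEN cells and 1.82 to 2.26 in the ESC lines, and Hnf4a differed by 0.22.

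**Figure D3:**
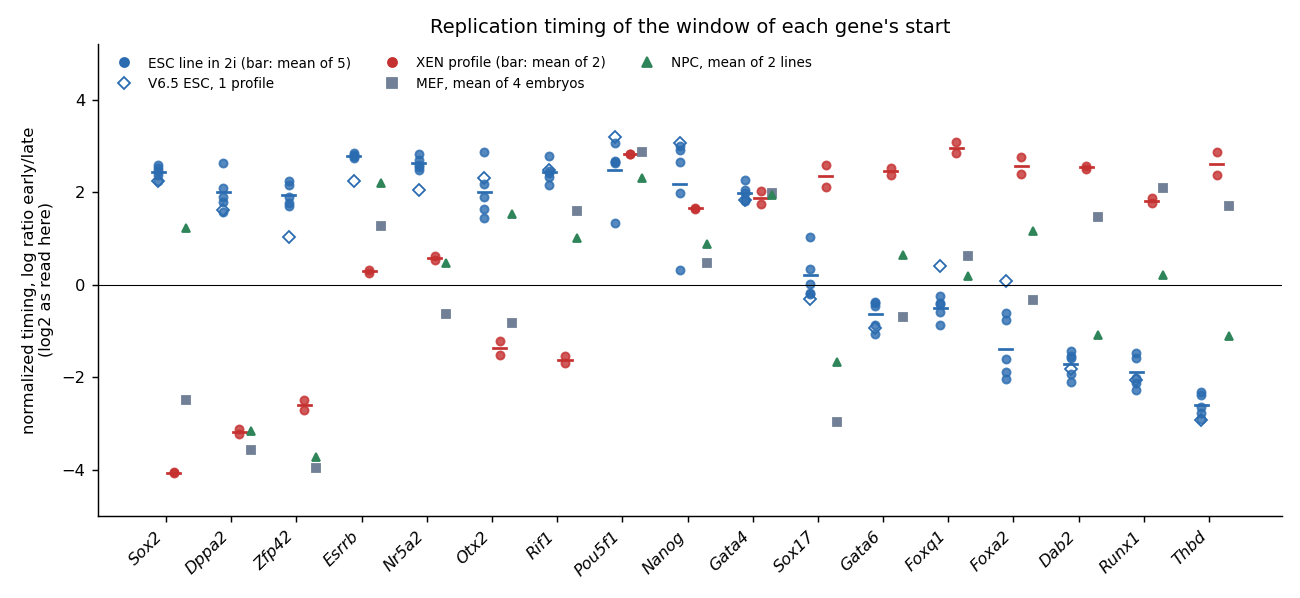
Normalized timing (log ratio of early to late signal, log2 as read here) in the window at, or nearest to, the start of named genes, with a circle for each XEN profile and ESC line, bars at their means, a diamond for V6.5, and squares and triangles for the means of MEFs and NPCs. Sox2 has XEN points at -4.08 and -4.05 and ESC points from 2.23 to 2.58, and Dab2 has XEN points at 2.57 and 2.51 and ESC points from -2.10 to -1.43.

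Genes for the work of the endoderm (signals, uptake of proteins, basement membrane and secreted proteins) passed the test in part. Over all measured genes 12% rose and 16.3% fell. Of 12 signalling genes 3 rose and 3 fell (25% each way). Bmp2 rose by 3.07 and stayed late, at -1.03 and -0.63. Dkk1, a WNT antagonist, rose by 2.93 and the FGF receptor gene Fgfr2 by 1.97. Fgfr1 fell by 1.97, from 2.43 to 2.88 in the ESC lines to 0.73 and 0.68, and Cer1, a NODAL antagonist of anterior visceral endoderm, by 2.47. Of 9 uptake genes 3 rose (33.3%) and 0 fell. Dab2, an endocytic adaptor of extraembryonic endoderm, was at 2.57 and 2.51 in XEN cells and at -1.58, -1.93, -1.43, -2.10 and -1.54 in the ESC lines. It rose by 4.26 ± 0.26 (SE; limma, adjusted p = 2.93e-07), and MEFs were at 1.47. Cubn, which encodes the receptor cubilin, rose by 2.40, while its partner Lrp2 differed by 0.70.

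Of 15 matrix genes 3 rose (20%) and 1 fell (6.67%), against 12% and 16.3% of all measured genes. Thbd, which encodes the parietal endoderm marker thrombomodulin, rose by 5.21, from between -2.90 and -2.32 to 2.36 and 2.86. It lies in the same called region as Foxa2 (chr2:147450001-149250000), so the rises of Thbd and Foxa2 are not independent. Plod2, a collagen lysyl hydroxylase, rose by 3.34. Lamb1 rose by 1.01, a call that ended in 10 of the 20 alternatives, among them the fits without XEN profile 2 (0.73), F121 (0.97) or Cas129 (0.84), and on the Cas columns alone (0.72). Sparc fell by 1.12, a call that ended without either XEN profile (adjusted p = 0.102 and 0.0908, limma) and in the Cas columns alone (-0.98). Lama1 had XEN values of 1.70 and 1.66 and ESC values from -0.61 to 1.86 (adjusted p = 0.0802, limma with Benjamini-Hochberg adjustment), and Col4a1 differed by -0.09. Of 14 secreted proteins 3 rose (21.4%), Spink1 by 3.70 and the neighbours Afp and Alb by 1.95. Over the 5 endoderm lists, the medians were between -0.09 and 0.70.

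**Figure D4:**
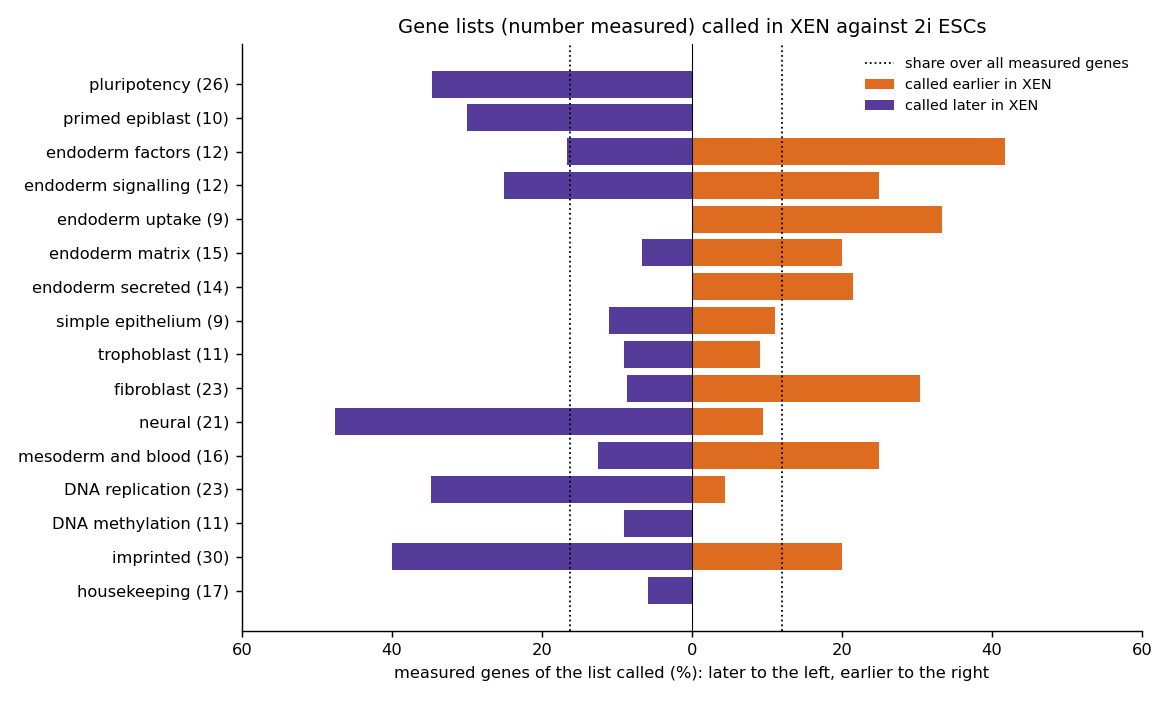
Percent of the measured genes of each list that were called later (bars to the left) or earlier (bars to the right) in XEN cells, with the number measured in brackets and dotted lines at the shares over all measured genes, 16.3% later and 12% earlier. Pluripotency genes have 9 of 26 later and 0 earlier, and endoderm factors 2 of 12 later and 5 earlier. The lists differ in ESC timing, which limits the calls possible in each direction.

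Genes of other fates were measured beside these, and 12% of all measured genes rose and 16.3% fell. Neural genes fell in 10 of 21 and rose in 2, with a median of -0.88. Ncam1, a neural adhesion molecule, fell by 3.07 and Sox1 by 2.28. Fibroblast genes rose in 7 of 23 and fell in 2. Their ESC median was -0.88, against 2.13 over all genes, which leaves more room to rise. Dcn, which encodes decorin, rose by 3.46 to 0.39 and 0.45, and Vim by 2.53. Vim is a neighbour of Cubn, counted above among the uptake genes, so the rises of Vim and Cubn are not independent. Col3a1 fell by 2.46 to -4.04 and -3.67, where MEFs were at 1.78. Of 16 mesoderm and blood genes 4 rose and 2 fell. Runx1, a regulator of blood formation, rose by 3.71 from between -2.27 and -1.47 to 1.86 and 1.76, and Hand2 fell by 2.58. Trophoblast genes gave 1 rise (Elf5, 1.05) and 1 fall (Ascl2, -2.25) among 11, and the call of Elf5 ended without XEN profile 1 (0.91) or F121-9 (0.97), and in the Cas columns alone (0.35, adjusted p = 0.336, limma). Housekeeping genes gave 1 fall among 17, with a median of -0.38 and 0 to 4 falls over the alternatives. The gene that fell was Eef2 (-1.40), whose call ended in 7 of 20 alternatives, among them the fits without either XEN profile (-1.31 and -1.49).

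Genes of the replication machinery and its control fell in 8 of 23 (34.8%) and rose in 1 (4.35%). The shares over all measured genes were 16.3% and 12%. On the values as deposited 4 of the replication genes fell and 2 rose. The listed genes had an ESC median of 2.42, at which few genes are called earlier. Rif1, a regulator of replication timing, was at -1.54 and -1.70 in XEN cells and at 2.40, 2.78, 2.45, 2.34 and 2.16 in the ESC lines. It fell by 4.05 on the log2 scale (SE 0.25, adjusted p = 2.93e-07, limma). V6.5 was at 2.48, MEFs at 1.58 and NPCs at 1.00, so that the XEN profiles lay below all of them. Gins2, of the replicative helicase, fell by 2.38 and Orc5, of the origin recognition complex, by 1.95. Mcm3, also of the helicase, rose by 1.05, a call that ended without XEN profile 1 (0.91) or Cas129 (0.87) and in the columns of the allele that is not Cas (0.85). Of 11 genes of DNA methylation 1 fell, Tet2, which encodes a 5-methylcytosine oxidase, by 2.95.

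Hox genes are arranged in 4 clusters, and these differed from each other. All 11 Hoxa genes (3 windows, chr6:52155367-52260880) were called later, with cluster means of 0.34 and 0.32 in XEN cells and 2.17 to 2.95 in the ESC lines. All 9 Hoxd genes (3 windows, chr2:74668225-74765142) were called later, at -2.09 and -2.20 against 0.62 to 1.34. No Hoxb or Hoxc gene was called. Hoxb was at 3.18 and 2.91 in XEN cells, with an ESC mean of 2.58 and a lowest line at 1.98, and Hoxc at 3.09 and 2.64 against 2.30 to 2.91. MEFs were at 2.58, 2.58, 2.80 and 1.15 for Hoxa, Hoxb, Hoxc and Hoxd. Every alternative that was run counted 20 later calls, and 5 earlier calls arose only in the columns of the allele that is not Cas. Genes of a cluster share windows and are not independent.

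Other clustered families moved as a whole or in part. All 14 Ifna genes on chromosome 4 (5 windows) were called earlier. They were at 2.41 and 1.81 in XEN cells, at -1.34 to -0.38 in the ESC lines, at 0.69 in V6.5 and at 2.24 in MEFs. Of 27 type I keratin genes on chromosome 11, 21 rose, and of 26 type II keratin genes on chromosome 15, 12. Over all 49 measured keratin genes 29 rose (59.2%), and 17 to 36 did over the alternatives. Among all measured genes 12% rose and 16.3% fell. Zinc finger genes of the Zfp families fell in 90 of 355 (25.4%) and rose in 19 (5.35%). On the values as deposited 42 of them fell and 34 rose. Their ESC median was 2.51, at which few genes are called earlier. Olfactory receptor genes had 141 rises (15.4%) and 206 falls (22.5%) among 916, against 12% and 16.3% of all measured genes. Their ESC median was -1.68, against 2.13 over all genes. By window, 69 were called earlier and 91 later of 439. Over all autosomal windows 17.6% were called earlier and 18.0% later. On the values as deposited the olfactory balance turned to 262 and 109, as that of all windows did (12501 and 4737).

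**Figure D5:**
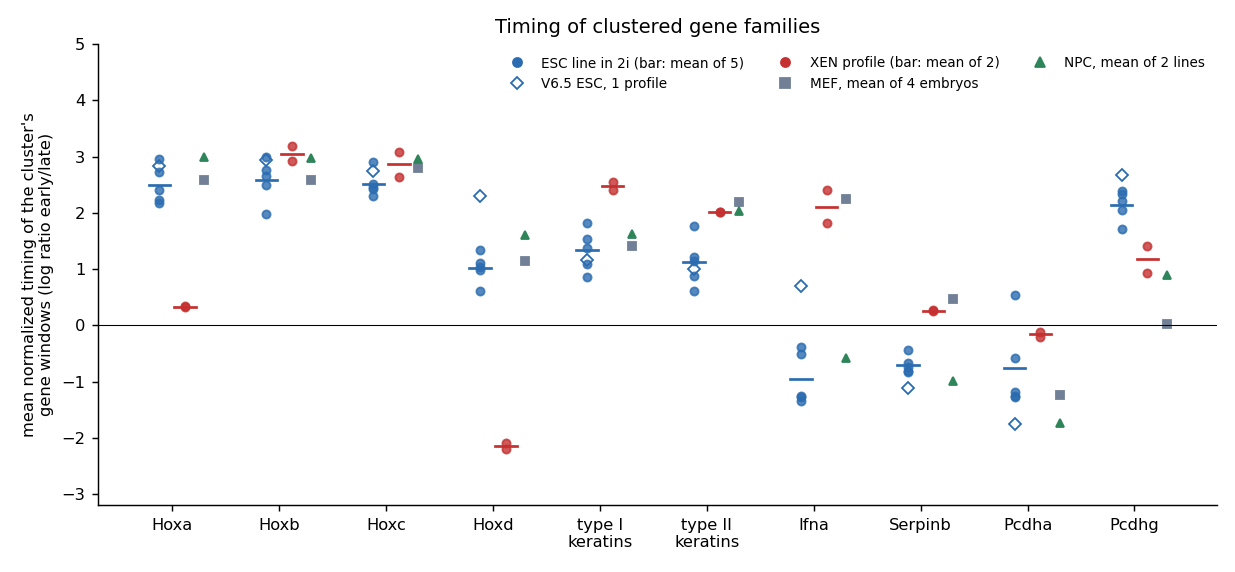
Mean normalized timing (log ratio of early to late signal) of the windows of clustered gene families, with a circle for each XEN profile and ESC line, bars at their means, a diamond for V6.5, and squares and triangles for the means of MEFs and NPCs. The XEN points of Hoxa (0.34 and 0.32) and Hoxd (-2.09 and -2.20) lie below all other points of their cluster, while those of Hoxb and Hoxc overlap the ESC lines.

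MicroRNA genes were read from the window of their RefSeq position on GRCm38.p6. Of 1110 measured genes in 851 windows, 89 (8.02%) were called earlier and 273 (24.6%) later. By window, 81 (9.52%) were earlier and 130 (15.3%) later, against 17.6% and 18.0% of all autosomal windows. Large clusters weigh on the count of later genes, with 72 genes in the Sfmbt2 cluster on chromosome 2 and 60 in the Dlk1-Meg3 cluster on chromosome 12. The mature sequences of the families tied to ESCs, and of the largest moves in each direction, are shown with the seed (bases 2 to 8) in capitals. They were chosen after their values were seen.
mmu-miR-302b-3p: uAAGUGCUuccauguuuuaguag
mmu-miR-302d-3p: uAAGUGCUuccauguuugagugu
mmu-miR-294-3p: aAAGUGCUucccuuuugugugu
mmu-miR-295-3p: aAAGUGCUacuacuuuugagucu
mmu-miR-367-3p: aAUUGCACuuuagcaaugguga
mmu-miR-708-5p: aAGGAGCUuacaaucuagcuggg
mmu-miR-199a-3p: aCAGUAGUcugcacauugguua
mmu-miR-214-3p: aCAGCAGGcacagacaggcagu

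MiR-302b and miR-302d share the seed AAGUGCU with miR-291a, miR-294 and miR-295 of another chromosome. The window of Mir302b, Mir302c, Mir302d and Mir367 (chr3:127500001-127550000) was at -0.39 and -0.62 in XEN cells and at 2.02, 2.71, 1.91, 2.09 and 1.57 in the ESC lines. It fell by 2.57 on the log2 scale (SE 0.30, adjusted p = 2.43e-05, limma). The window of Mir291a, Mir294 and Mir295 was at 1.28 and 1.22 in XEN cells, with a difference of -1.26 (adjusted p = 0.0638, limma with Benjamini-Hochberg adjustment). Mir708, which lies in Tenm4, fell by 6.58 to -4.06 and -3.94. Mir199a-2 and Mir214, made from 1 transcript, rose by 3.82 to 0.99 and 1.23. Mir199a-1, whose mature product has the same sequence as that of Mir199a-2, differed by 0.21.

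The profiles were also compared as a whole. Timing crossed 0 at 1173 and 1153 places in the XEN profiles and at 1232, 1584, 1438, 1395 and 1186 in the ESC lines (first profile of each), fewer in XEN cells than in any of these. The median early run was 550 kb in XEN cells and 450 kb in the ESC lines (SD 35.4, n = 5). Both differences had p = 0.0952 in a two-sided exact permutation test, the smallest that 2 against 5 can give. With each ESC line as the mean of its profiles, the crossings gave p = 0.381 (ESC mean 1357, SD 199.8, n = 5; exact permutation test), and in the Cas columns alone p = 0.286, while the early run kept p = 0.0952. The median late run, the correlation of windows 1 Mb apart and the share of windows of intermediate timing gave exact p-values of 1, 0.857 and 0.667. None of the 5 measures could pass 0.05 in this design.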

How the data were processed

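Repli-Seq libraries were aligned with Bowtie2 and handled with SAMtools and bedtools, on mm10, per the submitters' processing notes. The deposited values, read here as log2 because the base is not given in the sources used here, are ratios of early to late signal for each allele in 50 kb windows, made by the authors from the sequenced S phase fractions per the labels. No read counts were used, so the depth behind a value is unknown. The 54 allele columns were quantile normalized over the 43941 autosomal windows, the 2 alleles of a profile were averaged, and then the profiles of a line. XEN profiles (2) and ESC lines (5) were compared with limma 3.58.1 in R 4.3.3, with Benjamini-Hochberg adjustment over all windows. Windows were called at a minimum difference of 1 and an adjusted p under 0.05. On simulated data with 200 changed windows of 43941, 32.5%, 61.0% and 95.0% were recovered at differences of 1.5, 2 and 3. False calls numbered 1, 4 and 10. The simulated windows were drawn independently, and far fewer were changed than the 35.6% called in the data. The adjusted threshold therefore differs, and these shares do not give the recovery in the data. Called windows up to 2 windows apart formed regions. Named genes were the up to 6 largest calls in each direction per list. Named regions were the 12 of largest mean difference per direction with both XEN profiles beyond all 5 ESC lines at the peak window. Genes and promoters came from RefSeq (GRCm38.p6; 19287 of 20665 autosomal protein-coding genes had a window), 3899 of them placed by their midpoint because no strand was given. Members and lists were chosen with earlier results of these data known. Replicate numbers did not pair samples: deviations of same-numbered profiles correlated at -0.387 to 0.265 over 10 pairs.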

Additional observations from a re-analysis of the deposited data

Results flagged for a closer look

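Among the named regions and genes, an ESC line lay far from the other 4 in 14 of 128 sets of 5 values (10.9%), where chance gives about 1 in 20. In 9 of the 14, F121-6 was low, at very early genes. F121-6 was at 1.44 for Dppa3 and Gdf3 (nearest other line 2.59), 1.38 for Dppa5a (2.75), 1.72 for Fgf3 and Fgf4 (2.79), 1.34 for Pou5f1 (2.63), 1.85 for Sparc (2.82), 1.35 for Tfcp2l1 (2.72) and 1.66 for Zscan10 (2.71). Some of these genes share a window. Cas129 was low for the region next to Exoc2 (-1.46, nearest -0.89), Cdh2 (-2.51, nearest -1.65) and Kit (-0.50, nearest 1.01). F121-9 was high for Afp and Alb (0.24, nearest -0.28).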

How the results depend on the processing

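The counts of windows called earlier and later in XEN cells were 7724 and 7909. They were 12501 and 4737 with no normalization, and 2974 and 2649 with a minimum difference of 2. Leaving out 1 XEN profile or 1 ESC line in turn gave 6946 to 7957 and 6646 to 8192, and each fit with a lone XEN profile assumes that XEN profiles vary like the ESC lines. With the replicate number as a block the counts were 7623 and 7833, and with line as a random block 7024 and 7097; the pairing changed neither count by over 1.5 times. With XEN as 1 unit they were 6746 and 6597. Col6a3 turned from 1.69 to -0.58 (adjusted p = 0.205, limma) in the Cas columns alone; the cause was not tested. The numbers of XEN and ESC units limit the precision, and the depth is unknown. The replicate block ended the calls of Tfcp2l1, Lamb1 and Eef2.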

Other observations

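Imprinted genes moved in both directions, 6 earlier (20%) and 12 later (40%) of 30, against 12% and 16.3% of all measured genes. Over the alternatives 3 to 8 were earlier and 7 to 13 later. Zdbf2 was at -1.12 and -1.24 in XEN cells and at 1.49 to 2.86 in the ESC lines, and fell by 3.63. Sfmbt2, which is imprinted in extraembryonic tissue, fell by 2.25, with -3.51 in the columns of the C57B6 or 129 allele and -0.98 in the Cas columns, where the call ended (adjusted p = 0.0848, limma). The neighbours Peg3 and Zim1 rose by 1.98 and 2.04, from between 0.05 and 0.41 in the ESC lines to between 1.83 and 2.46. These are means of both alleles, and the crosses differ in the allele that is not Cas.

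Of 10 primed epiblast genes 3 fell (30%) and 0 rose, against 16.3% and 12% of all measured genes, with a median of -0.76. Their ESC median was 2.40, at which few genes are called earlier. Of 9 epithelial and keratin marker genes 1 rose and 1 fell: Krt19, with a difference of 1.12, and Spp1, with -2.84. The call of Krt19 ended without XEN profile 1 (0.93).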
